A study of Drosophila melanogaster with 3 samples.

Results

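The 10 genes CG14100, Ugalt, px, PNPase, Tcs5, CHMP2B, CG1888, GstE13, CG18549 and larp hold some of the strongest promoter sites of the CG1647-GFP fusion protein in Drosophila melanogaster embryos. They were chosen by the high signal of a peak near a transcript start, out of 13945 protein-coding genes, of which 2266 (16.2%) had a retained peak summit within 500 bp of a start. All 10 had such a summit, which is how they were chosen and is given as a description. Tcs5 and CHMP2B share a peak, so the 10 genes have 9 distinct sites among the 3123 retained peaks. The measurement was ChIP-seq, which counts DNA fragments pulled down with a protein, on whole embryos of both sexes aged 0 to 24 h from a transgenic line that carries CG1647 with GFP at its C terminus. The sample descriptions name an anti-GFP antibody, while the antibody field of the labels reads CG1647, so whether the fusion alone was pulled down is not settled by the labels. There were 3 biological replicates of 1 group, and all results here describe that group. Every embryonic tissue is mixed in these samples, and the 3 replicates come from 1 strain. Retained peaks are those the authors kept by the irreproducible discovery rate (IDR), a measure of agreement between replicates, from 19204 candidate peaks of the pooled replicates. By its label, the candidate list holds background as well as peaks, so an unretained candidate need not be a binding site.

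A promoter is the stretch of DNA around a transcript start where the transcription machinery assembles, and many fly genes have several starts, each with a promoter of its own. Pairs of genes that start close together on opposite strands share the DNA between their starts. CG1647 has no descriptive protein name in RefSeq. The 10 genes belong to no single pathway: they encode enzymes of RNA and tRNA metabolism, a sugar transporter, a membrane remodelling protein, a glutathione S-transferase, a regulator of wing veins and proteins without a named function.

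The DNA under 4 of the summits is given here, 3 of them with the single 8-base word that was found at 4 of the 9 sites. The runs are the genome sequence of dm6 (RefSeq copy of release 6) on the forward strand, 5′ to 3′, and capitals mark the word CTACGCCC. The CG14100, Ugalt and shared Tcs5 and CHMP2B sites are shown because they hold the word with the same 3 bases, ATG, after it. The CG18549 site is shown as one without the word. The summit is base 101 of each run except that of Ugalt, which begins next to its outermost transcript start and has the summit at base 28.
CG14100 (chr3L:19590525-19590724, forward strand): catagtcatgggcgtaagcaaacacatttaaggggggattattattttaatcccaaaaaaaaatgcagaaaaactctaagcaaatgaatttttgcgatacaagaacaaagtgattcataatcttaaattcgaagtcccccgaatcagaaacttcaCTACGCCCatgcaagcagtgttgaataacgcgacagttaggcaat
Ugalt (chrX:2703853-2703979, forward strand): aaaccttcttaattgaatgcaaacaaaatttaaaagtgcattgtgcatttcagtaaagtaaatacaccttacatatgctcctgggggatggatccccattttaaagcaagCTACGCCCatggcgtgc
Tcs5 and CHMP2B (chr3L:5139406-5139605, forward strand): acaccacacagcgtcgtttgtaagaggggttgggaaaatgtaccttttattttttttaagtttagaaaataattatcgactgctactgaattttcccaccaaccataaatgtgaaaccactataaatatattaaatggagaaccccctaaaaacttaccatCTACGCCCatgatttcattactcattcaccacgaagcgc
CG18549 (chr3R:12449084-12449283, forward strand): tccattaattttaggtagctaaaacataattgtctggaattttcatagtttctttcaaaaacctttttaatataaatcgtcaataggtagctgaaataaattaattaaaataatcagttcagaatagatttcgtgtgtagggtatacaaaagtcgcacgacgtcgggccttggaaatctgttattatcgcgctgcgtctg
In the CG14100 run the inner word TACGCCCA occurs in 2 copies, the second inverted near the other end of the run, and no other member site held more than 1 copy.

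The signal value of a peak, which the authors' peak caller gave, was 2899 at CG14100, 2622 at Ugalt, 1770 at px, 1720 at PNPase, 1627 at Tcs5 and CHMP2B, 1557 at CG1888, 1240 at GstE13, 1202 at CG18549 and 1155 at larp. These are ranks 1, 2, 6, 7, 10, 11, 20, 21 and 24 of the retained list, whose median signal was 189 and lowest 126. The highest signal of a pooled candidate that overlaps no retained peak was also 126. Unretained candidates are thus those of lower pooled signal, and some had a peak in all 3 replicate lists. The plot of signal by rank shows that the sites lie on the steep upper end of the list and leave gaps between them. The 25 highest peaks include 18 at promoters, of which 9 are the sites described here. The highest promoter peak that belongs to none of the 10 genes was rank 5, with a signal of 1835, and the next promoter peak after larp was rank 25, at 1154. The 10 genes are therefore among the strongest promoter sites and do not exhaust them. The −log10 q-value could not rank the sites, because 1888 retained peaks share its highest value of 3.58.

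**Figure D1:**
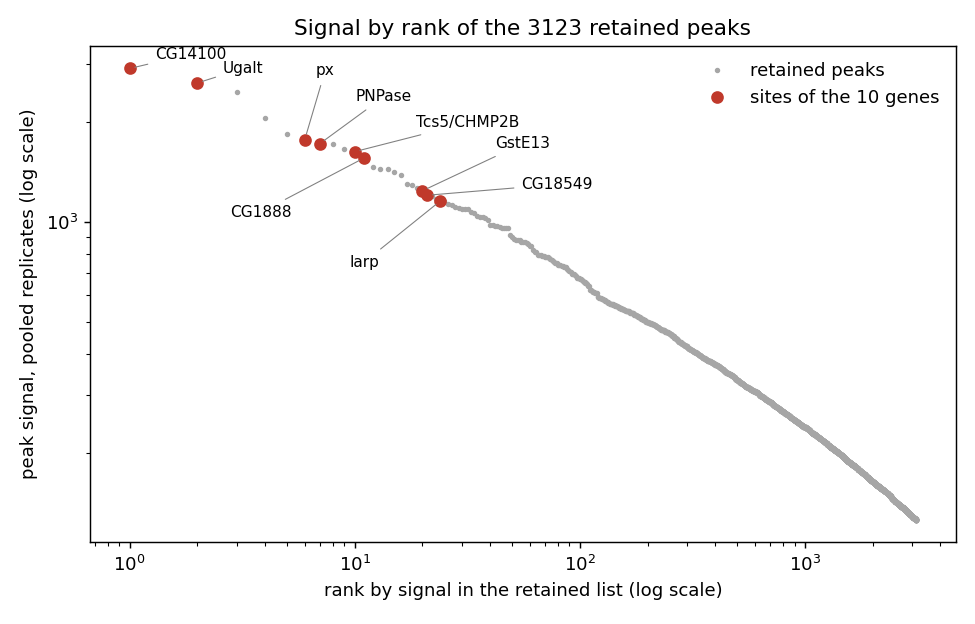
Signal of each of the 3123 retained peaks (vertical, log scale) against its rank in the list (horizontal, log scale). Grey points are all retained peaks and red points the 9 sites of the 10 genes, which run from 2899 at CG14100 to 1155 at larp.

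Signal is scaled separately in each list, so for each replicate it was divided by the median signal of that replicate's 3123 best-ranked peaks, which was 56.8 in replicate 1, 76.99 in replicate 2 and 62.3 in replicate 3. The result is called relative signal here. The pooled list that chose the genes holds the reads of the same replicates, so these values describe the spread and test nothing. All 9 sites were found among the best-ranked peaks of all 3 replicates, as were 58.4% of retained peaks. Their median rank was 9 in replicate 1, 8 in replicate 2 and 11 in replicate 3. The lowest place any site took was rank 37, that of larp in replicate 2.

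Ugalt encodes a transporter that carries UDP-galactose into the Golgi, where sugars are added to proteins. Its site on X, from 2703698 to 2704071, had a relative signal of 13.8, 15.1 and 11.1 in replicates 1, 2 and 3, a mean of 13.3 ± 2.02 (SD, n = 3). It was rank 1 in replicate 1 and rank 2 in the other replicates. The summit at 2703880 lay 28 bp upstream of the outermost of 2 starts and 135 bp upstream of the other, outside the gene. Its position was the same base in all 3 replicates, the only site of which this was true. GstE13, a glutathione S-transferase of the epsilon class that joins glutathione to reactive compounds, had its site on 2R from 9122077 to 9122329. The relative signal was 6.18, 7.56 and 4.94, a mean of 6.23 ± 1.31 (SD, n = 3), at ranks 23, 21 and 31. The summit at 9122167 lay inside the gene, in the 5′ UTR, 42 bp downstream of the first start and 157 bp upstream of the second. The 2 genes thus differ in where the summit sits: just outside Ugalt and just inside GstE13.

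The site between Tcs5 and CHMP2B lies near the starts of 2 genes of unlike function. Tcs5 is a kinase of the complex that makes the threonylcarbamoyl modification of tRNAs, and CHMP2B is a subunit of ESCRT-III, which pinches off membranes at endosomes. The peak ran from 5139347 to 5139654 on 3L, and its summit at 5139506 lay 111 bp upstream of the Tcs5 start and 113 bp upstream of the CHMP2B start, nearly in the middle of the DNA between the genes. The relative signal was 6.66, 10.45 and 7.26 in replicates 1, 2 and 3, a mean of 8.12 ± 2.04 (SD, n = 3), at ranks 16, 6 and 9. Replicate 2 was the high one. The replicate summits spread over 26 bp, the widest spread of the 9 sites, and in replicate 3 the summit was 92 bp from CHMP2B and 132 bp from Tcs5. Which of the 2 genes the signal belongs to cannot be told apart from a peak position.

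PNPase encodes polynucleotide phosphorylase, which degrades RNA from the 3′ end, in the mitochondrion. Its site on 3R ran from 31404513 to 31404801, with a relative signal of 8.67, 10.1 and 7.37, a mean of 8.70 ± 1.35 (SD, n = 3), at ranks 9, 8 and 8. The gene has 3 starts. The summit at 31404660 fell between the inner pair, 80 bp downstream of the second and 92 bp upstream of the third, in a 5′ UTR, and 792 bp inside the gene as counted from the outermost start. No candidate summit lay closer than 597 bp to that outermost start. larp, a La-related protein that binds RNA, had the lowest signal of the 10 genes and the smallest spread. On 3R, from 28326454 to 28326715, its relative signal was 6.235, 6.04 and 5.44, a mean of 5.90 ± 0.412 (SD, n = 3), at ranks 21, 37 and 22. The summit at 28326582 lay in an intron, 318 bp and 341 bp upstream of the innermost 2 of 6 starts and 9858 bp inside the gene as counted from the outermost one. The outermost start of larp had a retained peak of its own 61 bp upstream, with a signal of 191 (rank 1531), and the second start one 150 bp upstream at 218 (rank 1216). So larp held retained summits at several of its promoters, with the strongest at an internal one.

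px, plexus, is a nuclear protein gene whose loss gives extra wing veins. Its gene spans 67769 bp on 2R with 3 starts, and the peak ran from 22514139 to 22514449 in an intron. The relative signal was 10.1, 10.3 and 6.66 in replicates 1, 2 and 3, a mean of 9.02 ± 2.05 (SD, n = 3), at ranks 5, 7 and 12. Replicate 3 was the low one. The summit at 22514295 lay 196 bp upstream of the innermost start, which 1 of 6 transcripts uses, and 47770 bp inside the gene as counted from the outermost start, which 4 transcripts use. At that outermost start there was only an unretained candidate, 28 bp upstream, with a signal of 105 against 1770 at the internal start, and the second start had another candidate 372 bp upstream at 113. The strong site of px is thus at an inner start that 1 annotated transcript uses.

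CG14100, CG1888 and CG18549 have no named function in RefSeq. CG14100 (FBgn0036889) held the strongest retained peak, from 19590431 to 19590795 on 3L. Its relative signal was 13.75, 17.9 and 12.2, a mean of 14.6 ± 2.94 (SD, n = 3), at ranks 2, 1 and 1. The summit at 19590625 lay 101 bp upstream of the single start of this short gene, which spans 1453 bp. CG18549 (FBgn0038053, 3R) has a similar layout at a much lower signal. Its peak ran from 12449044 to 12449310 with the summit at 12449184, 112 bp upstream of the single start. The relative signal there was 5.13, 6.95 and 5.965, a mean of 6.02 ± 0.915 (SD, n = 3), at ranks 33, 24 and 18. CG1888 (FBgn0033421, 2R, 9547026 to 9547324) has 2 starts, and its summit at 9547193 lay 235 bp upstream of the inner one, in a 5′ UTR and 942 bp inside the gene as counted from the outer one. Its relative signal was 9.54, 7.88 and 6.77, a mean of 8.06 ± 1.39 (SD, n = 3), at ranks 6, 17 and 11. The outer start of CG1888 had only an unretained candidate 53 bp upstream with a signal of 54.9, so here too the strong site is at the inner start. That candidate was rank 17158 of 19204 and in the list of 1 replicate, so it may be background.

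The order of the 9 sites by mean relative signal followed that of the pooled signal, but most neighbours in the order overlapped in their replicate values. The exception was the step from Ugalt, at 11.1 to 15.1, down to px, at 6.66 to 10.3. CG1888 was above GstE13 in 3 of 3 replicates, though their ranges overlapped. For the 6 other neighbouring pairs the order held in 2 of 3 replicates, so they do not differ beyond their spread. As the plot of relative signal shows, CG14100 and Ugalt stand above the rest in every replicate and replicate 2 is the highest at 7 of 9 sites.

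**Figure D2:**
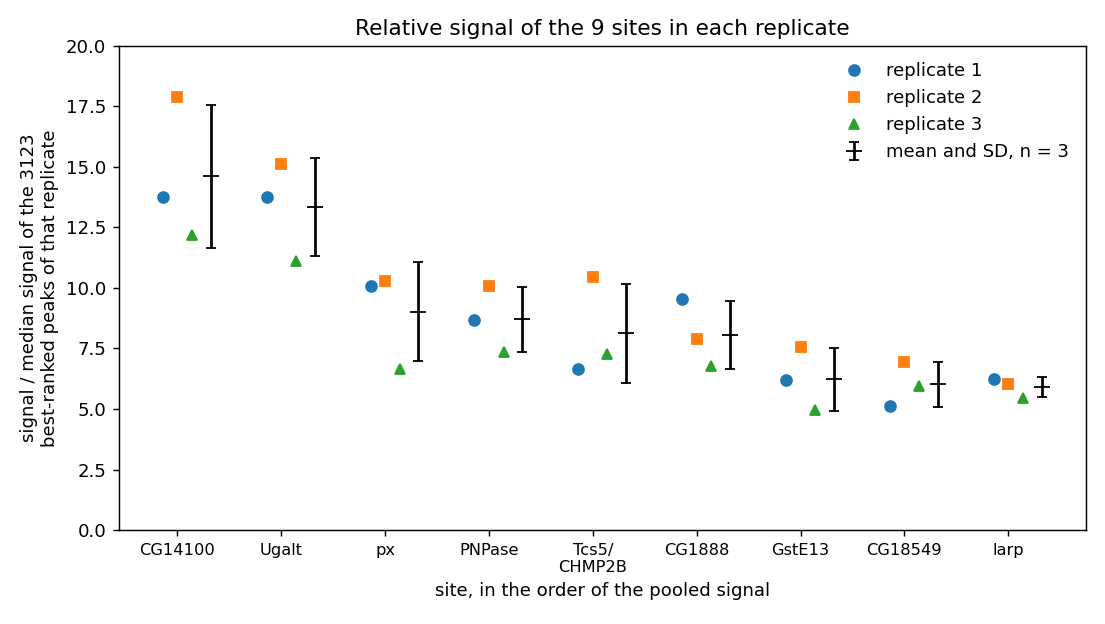
Relative signal (vertical, signal divided by the median signal of the 3123 best-ranked peaks of that replicate, no unit) at the 9 sites in the order of the pooled signal. Circles, squares and triangles are replicates 1, 2 and 3, and the bar beside them is the mean with its SD (n = 3). CG14100 and Ugalt lie between 11.1 and 17.9 in every replicate and the other sites between 4.94 and 10.45.

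Across the 10 genes, the summit lay upstream of the nearest start of the gene at 8 and downstream at PNPase and GstE13. Among all genes with a retained promoter summit it lay upstream at 87.1%. The median distance was -111.5 bp for the 10 genes (negative is upstream) and -114 bp for all genes with such a summit. Counted from outermost starts only, the median of the 10 genes turned to 7 bp downstream. The replicate summits of a site spread over 0 to 26 bp, with a median of 12 bp. With the summits of replicates 1, 2 and 3 the median distance of the 10 genes was -106.5, -109 and -103 bp. The gap between -111.5 and -114 bp is therefore not read as a difference. Of the 6 members with several starts, 4 (px, PNPase, CG1888 and larp) had the summit nearest to a start other than the outermost, against 39.9% of the 985 genes with a retained promoter summit and several starts. The map of peaks and starts shows the inner starts beside each of these peaks.

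**Figure D3:**
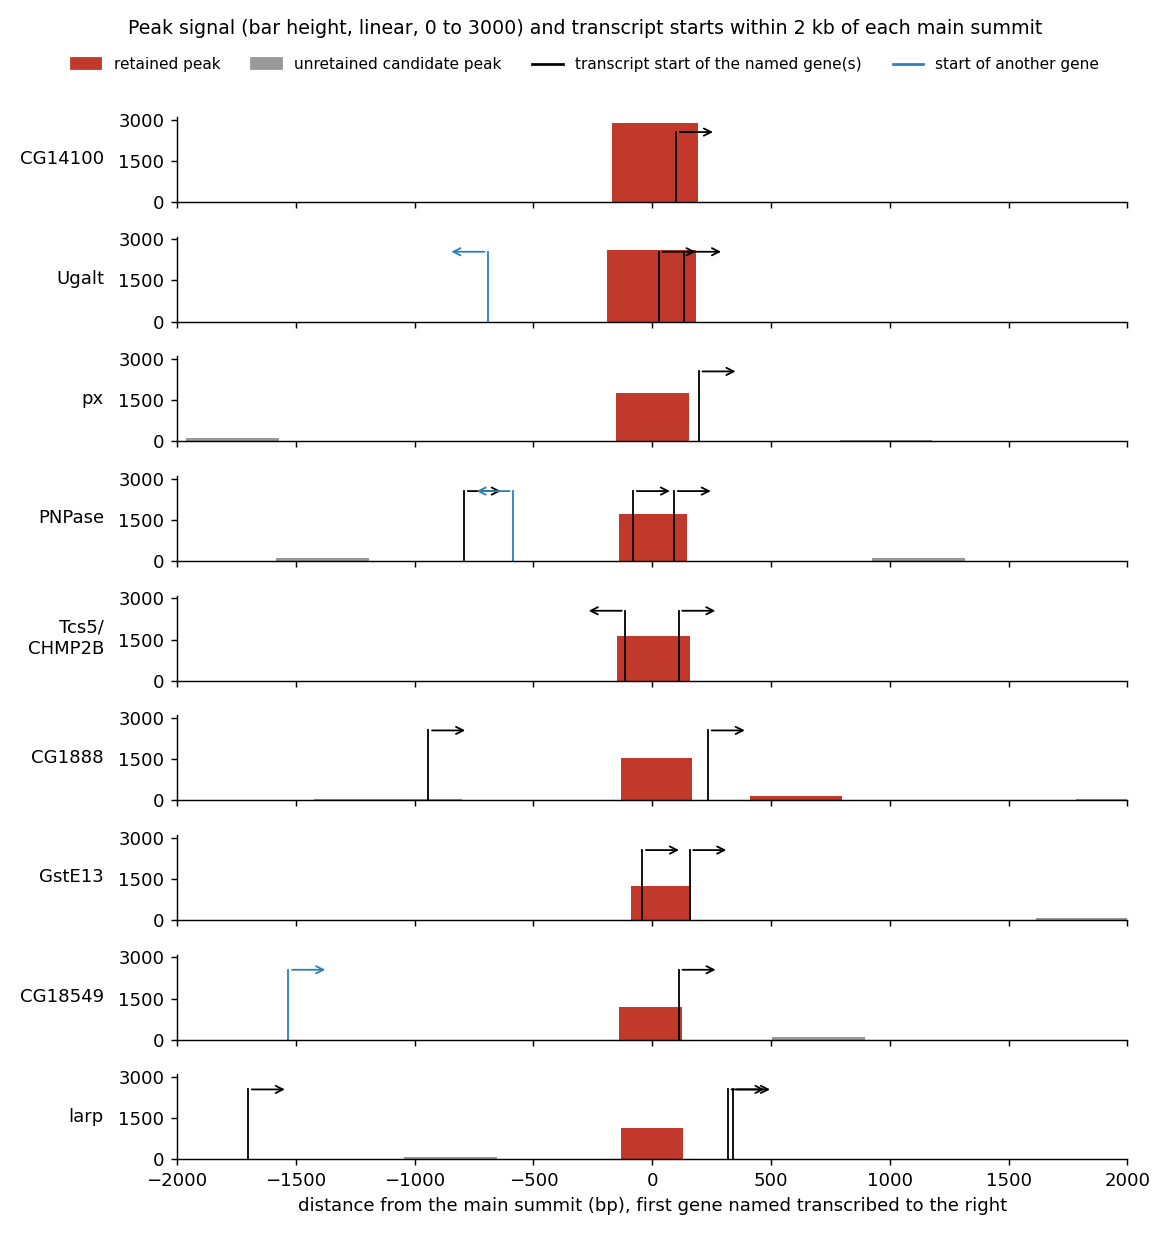
Peaks of the pooled replicates (bars, height is the signal on a linear scale) and transcript starts (arrows) within 2 kb of each main summit, with distance from the summit in bp on the horizontal axis. The first gene named is transcribed to the right, red bars are retained peaks, grey bars unretained candidates, black arrows starts of the named genes and blue arrows starts of other genes. The highest of the other peaks is the one near CG1888 at 162.

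Weaker entries of the candidate list, which by its label holds background as well as peaks, lay near many of the sites. Within 2 kb of the summit, 6 of the 10 genes (px, PNPase, CG1888, GstE13, CG18549 and larp) had a further candidate that did not overlap the main peak, against 67.7% of all genes with a retained promoter summit. The 3 sites with none in that range were those of CG14100, Ugalt and the Tcs5 and CHMP2B pair. There were 11 such candidates, and 1 of them was retained, 604 bp downstream of the CG1888 summit in an intron, with a signal of 162 (rank 2054) or 10.4% of the main peak. The other 10 candidates had 3.09% to 8.14% of the signal of their main peak. Since the main peaks were chosen for high signal, these percentages are low by that choice.

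Most of the sites faced 1 gene. The start of another protein-coding gene lay within 500 bp of the summit for 2 of the 10 genes, Tcs5 and CHMP2B, which are each other's neighbour, against 58.9% of all genes with a retained promoter summit. The next nearest starts were that of Gprk2, a G protein-coupled receptor kinase gene, 585 bp from the PNPase summit, and that of eIF2Bbeta, a translation initiation factor gene, 691 bp from the Ugalt summit. Neither had a retained promoter summit. Of the 18 nearest neighbours that do not share the peak, 1 had one, Gcn2, a kinase gene of the amino acid starvation response, whose start is 9000 bp from the PNPase summit (signal 191, rank 1532). With a limit of 1000 bp in place of 500 bp, an alternative chosen after seeing the data, 3 of the 18 had one. The wider limit added Gprk2 and eIF2Bbeta, which it credits with the PNPase and Ugalt peaks themselves. No neighbour gained a separate peak, so this count is not comparable with the share of all genes. Across all protein-coding genes the share was 16.2% at 500 bp and 18.7% at 1000 bp.

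The peaks were 253 to 374 bp wide with a median of 299 bp. All 9 were narrower than the widest retained peaks, at 390 bp, which 5.76% of retained peaks were. Most peaks narrower than 390 bp had a high signal: 140 of the 180 were among the 180 best ranks, though they reached down to rank 2871. The 16 other peaks of ranks 1 to 25 were also all narrower than 390 bp, at 267 to 367 bp. Narrower did not mean stronger among these peaks. CG14100 and Ugalt, of highest signal, were the widest of the 9 sites, at 365 and 374 bp, and larp, of lowest signal, was 262 bp wide. The median width of the narrower peaks other than the 9 sites was 184 bp. A width below 390 bp thus goes with high signal in this list and does not set the 10 genes apart.

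Exact matches to 11 known promoter and insulator motifs were counted on both strands of the 200 bp around each summit. The same window was read at 1573 other promoter peaks, each the highest of at least 1 gene. At the promoters of all 13945 protein-coding genes, 200 bp were read from 150 bp upstream to 50 bp downstream of the outermost start. Those windows are placed by the start and not by a summit. The share of all promoters is thus an unlike measure for motifs that lie at a fixed place from the start. The DNA replication-related element TATCGATA, bound by Dref, was at 0 of the 9 sites, against 8.9% of the other promoter peaks and 8.21% of all promoters. Its core ATCGAT was at 0 sites (19.8% and 19.7%). The BEAF-32 element CGATA, which TATCGATA contains, was at 3 sites, those of CG14100, the Tcs5 and CHMP2B pair and CG18549 (41.8% and 39.3%). None of these elements was more frequent at the sites than at other promoters.

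The core promoter motifs 1 (GGTCACAC) and 7 (CANCNCTA) were each at 0 of the 9 sites. Motif 1 was at 5.85% of the other promoter peaks and 7.02% of all promoters, and motif 7 at 19.7% and 12.5%. The CTCF core AGNNGGCGC, of the insulator protein CTCF, was at 0 sites (2.67% and 2.02%), and the E-box CAGCTG was at 0 (14.6% and 14.1%). The lack of a match says only that these letters are not in the window. Motif 6 (GTATNTTT) was at px alone (10.8% and 10.3%). The GAGA element GAGAG, read by GAGA factor, was also at px alone (21.3% and 22.6%). The TATA box TATAAA, to which the TATA-binding protein binds, was at 2 sites, those of the Tcs5 and CHMP2B pair and CG18549 (30.3% and 32.6%). It read along the forward strand, 20 to 25 bp after the summit at the pair and 30 to 25 bp before it at CG18549. CHMP2B starts 113 bp and CG18549 112 bp after the summit, so neither match was next to a start.

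The initiator TCAGT, part of the sequence at which many fly transcripts begin, was the most frequent of the 11 motifs at these sites. It was at 6 of 9, those of Ugalt, PNPase, the Tcs5 and CHMP2B pair, CG1888, CG18549 and larp, against 32.7% of the other promoter peaks and 42.4% of all promoters. Its matches began from 63 bp before to 66 bp after the summit on the forward strand, with no common place. At Ugalt, PNPase, CG1888 and larp they read only against the direction of the gene. At CG18549 the match lay 13 to 17 bp after the summit, and the start 112 bp after it. At the shared site the match read with Tcs5, 12 to 16 bp from the summit, while the Tcs5 start is 111 bp away. The count is thus one of letters and not of initiators in use. The share of A and T in the windows was 52% at Ugalt to 68% at GstE13 with a median of 63.5%, and the other promoter peaks had a median of 62.5% (quartiles 57.5% and 66.5%). The 20 most frequent 8-base words of the other retained summits were made of A and T only, led by AAAAAAAA, which was at 3 of the 9 sites and 13.0% of the other retained summits.

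**Figure D4:**
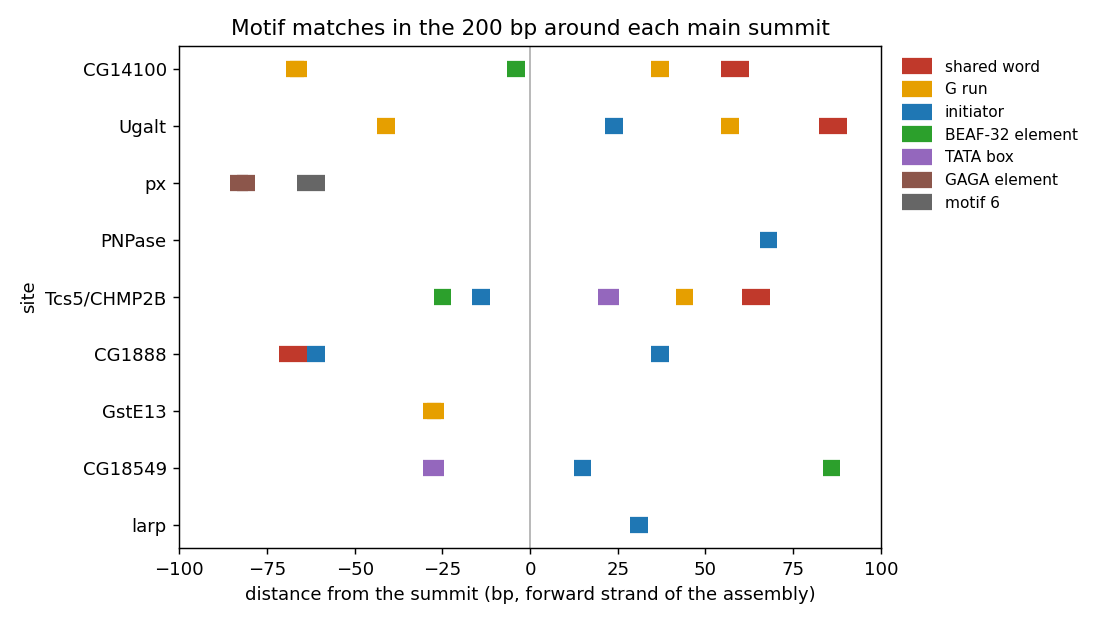
Position of each motif match (coloured bars) in the 200 bp around the 9 summits, in bp from the summit on the forward strand of the assembly (horizontal). The shared word, in red, lies 55 to 90 bp to the right of the summit at CG14100, Ugalt and Tcs5 and CHMP2B and 64 to 71 bp to the left at CG1888.

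The word CTACGCCC, marked in the sequences above, was picked because these sites share it, so its count at them is no test. Of all 8-base words, counted with their reverse complements, it was the only one at 4 of the 9 sites (CG14100, Ugalt, the Tcs5 and CHMP2B pair and CG1888), while 13 words were at 3 sites. Those 13 include words that overlap it where ATG follows, such as TACGCCCA, and common words of A and T such as AAAAAAAA. At the other promoter peaks its share was 1.14%, and it was in 0.867% of the 3114 other retained windows, 0.371% of the windows at 15633 unretained candidates and 0.251% of all promoters. Among peaks that did not choose it, the share was 2.41% (7 of 291) in ranks 1 to 300 and 0.7085% (20 of 2823) past them. The best-ranked peak with the word outside the 10 genes was rank 41, and the median rank of such peaks was 945. The share in ranks 1 to 300 rests on 7 peaks and on a single rank limit.

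At the 4 sites the centre of the word lay 59 to 87 bp from the summit, while in the 27 other retained windows that hold it the median was 46 bp and 16 of 27 were within 50 bp. It read along the forward strand at CG14100, Ugalt and the Tcs5 and CHMP2B site and along the reverse strand at CG1888, so against the direction of CG14100 and Ugalt and with that of CHMP2B and CG1888. Across the 6 chromosome arms the word occurred 1954 times, and 43 of these (2.20%) lay whole inside a retained peak, where retained peaks cover 0.871% of the sequence. Those 43 include the 4 sites that chose the word. With ATG after it the word occurred 87 times, of which 14 (16.1%) lay in a retained peak and 18 in any pooled candidate. Those 14 include the 3 sites that chose the ATG, and 6 other retained windows hold the longer word, the best at rank 66. At CG1888 the bases after the word were TTG. A run of 5 or more G (GGGGG), also picked after the sites were read, was at 4 sites, CG14100, Ugalt, the Tcs5 and CHMP2B pair and GstE13, against 9.73% of the other promoter peaks and 8.63% of all promoters. It was in 10.6% of the other retained windows and 16.6% of the windows at unretained candidates.

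The relatives of the 10 genes were looked up in 7 families and complexes. Of 78 genes other than the 10, 14 had a retained promoter summit, against 16.2% of all protein-coding genes. That count fell to 3 in the 1561 peaks of highest signal, where the share of all genes fell to 8.92%. It was 7 to 9 when 1 replicate was left out, where that share was 10.99% to 12.34%. The members were chosen for high signal, so no reading is drawn from their relatives having less. Among nucleotide sugar transporters, the family of Ugalt, it was 2 of 7, senju at 180.1 and meigo at 127. Among ESCRT-III subunits, the family of CHMP2B, it was 1 of 6, Vps60 at 173.5. The other genes of threonylcarbamoyl tRNA synthesis, where Tcs5 acts, gave 0 of 4.

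Glutathione S-transferase genes gave 2 of 34, GstD1 at 164 and GstE12 at 154. La-related genes gave 2 of 3, La at 156 and Larp7 at 145. The RNase PH family and exosome, the other enzymes that trim RNA from the 3′ end and their partners, gave 3 of 10, with Csl4 at 324, Rrp6 at 153 and Rrp42 at 147. Wing vein genes, with which px is grouped, gave 4 of 14. These were spi, which encodes a ligand of the EGF receptor, at 529.6 (rank 173), bs, a transcription factor gene, at 271, N, the Notch receptor gene, at 188, and aos, which encodes a secreted inhibitor of that EGF receptor, at 166. Several of these weak peaks were not in every replicate: those of meigo, La and Rrp6 were among the best-ranked peaks of 1 replicate.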

How the data were processed

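The authors deposited dm6 peak lists for 3 replicates, for their pooled alignments and for the peaks retained by IDR, derived against a control alignment per the descriptions deposited with the libraries. No source used here gives the peak caller, aligner or IDR threshold. Each deposited list holds a signal per peak, on a scale set for that list, and the −log10 of its q-value, as the authors' caller gave them. Read counts were not used, so depth is unknown and no precision from depth is given.

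Summits were set against Ensembl release 115 and the RefSeq copy of genome release 6 with Python 3.11.15, numpy 2.4.6 and pandas 2.3.3. A promoter summit lay within 500 bp of any protein-coding transcript start, and a site was found in a replicate where at least 1 bp overlapped its 3123 best-ranked peaks. Motif counts used 200 bp windows. The counting was tested on simulated data. Older dm3 lists were not used. The genes named are the 10 genes, their nearest neighbours, and related genes with a retained promoter summit. Members and lists were chosen with earlier results of these data known, so no p-values are given, and replicate values describe the spread between samples.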

Additional observations from a re-analysis of the deposited data

How the results depend on the processing

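No paired analysis was possible because the labels give 1 group. Of 218 values under alternatives 173 kept within the spread or within 1.5 times and 44 moved beyond that. The other 1, the median distance from outermost starts, changed sign. All 10 genes kept a retained promoter summit in each setting but the 200 bp limit, which left out CG1888 and kept 9, larp among them through weaker peaks (signals 191 and 218) and not its strong site, and all 9 sites were found in every replicate in each setting. The median replicate rank of 9 became 1 when ranked by q-value, where ties fix it, and 8.5 to 11 on leaving out 1 replicate. The median distance of -111.5 bp became 7 bp from outermost starts, -106.5 bp with summits of replicate 1, -103 bp with those of replicate 3 and -108.2 to -102 bp on leaving out 1 replicate. From outermost starts 5 members were upstream. Second peaks were at 10 members within 5 kb and at 1 with retained peaks only, and another start lay within 1000 bp for 4. In 400 bp windows the DRE was at 1 site, its core at 1, CGATA at 5, motif 6 at 2, the E-box at 2 and GAGAG at 4. In 100 bp windows motif 6 and GAGAG were at 0, and with summits of replicate 3 the E-box was at 1. The shared word, an alternative chosen after seeing the data, was at 0 in 100 bp windows, which exclude its place at these sites. Related genes fell from 14 to 3 in the 1561 highest peaks and to 7 to 9 on leaving out 1 replicate, while the share of all genes fell from 16.2% to 8.92% and to 10.99% to 12.34%. Neighbours with a retained summit were 3 at 1000 bp, where Gprk2 and eIF2Bbeta are credited with the PNPase and Ugalt peaks. Depth is unknown, peak scores of different lists are not comparable, and 9 sites give no more than coarse counts.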
